A study of Mus musculus with 4 samples.

Results

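The complement genes of the mouse uterus on day 4 of pregnancy were compared between uteri labelled p38α ff and uteri labelled p38α dd. The set holds 34 genes of the 54152 in the table, chosen by name as components, receptors and regulators of the complement system, and all 34 were found. RNA was sequenced from whole uteri of C57 mice, in 2 libraries of genotype P38α ff and 2 of genotype P38α dd, all taken on pregnant day 4. The series title calls the groups WT and P38α KO. What ff and dd stand for at the allele, the driver of the deletion and the cells it reaches are not stated by the labels. Nor do they state whether the replicates were separate animals, and the p-values here reflect the spread among these 4 libraries, which may be technical. The comparison asks which transcripts differ in a uterus labelled as lacking p38α, a stress-activated protein kinase whose gene is Mapk14.

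Complement is a set of plasma and tissue proteins that tag and lyse targets and call in phagocytes. C1q with the proteases C1r and C1s starts the classical pathway, collectins with the MASP proteases start the lectin pathway, and factors B and D with properdin run the alternative pathway. All of them meet at C3, are followed by the terminal pathway from C5 to C9, and are held back by regulators on host cells. Most plasma complement comes from the liver, C1q is made largely by macrophages, and in the rodent uterus C3 is known as an estrogen-induced product of the epithelium.

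The libraries held between 24619850 and 32451670 counts. Mapk14 itself was not called. Its counts were 3074 and 2710 in the ff libraries, then 2481 and 3429 in the dd libraries (log2 change 0.28, edgeR adjusted p = 0.12), and a deletion limited to some exons need not show in such totals. The group names are used as the labels give them, without a check from the targeted gene. Of the markers of tissue compartments, all 12 stromal, 15 epithelial and 8 myometrial genes passed the filter on low counts. Stromal markers were lower in dd (6 of 12 called lower, median log2 change -0.68), as were endothelial markers (10 of 12, -0.85), and epithelial markers were higher (6 of 15 called higher, 0.97). Among blood cells, 4 of 5 tested red cell markers and 4 of 8 tested B and plasma cell markers were called higher. Over all tested genes 3.86% were called lower and 4.52% higher, the shares to set beside every marker list.

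Of the 34 complement genes, 28 passed the filter and were tested. In the libraries labelled dd, 6 were lower and 3 were higher, by edgeR's quasi-likelihood test with Benjamini-Hochberg adjustment over all genes at an adjusted p under 0.05. Of all 18530 tested genes, 3.86% were lower and 4.52% higher, or 8.39% in all. The genes that fell were C1qa, C1qb and C1qc, the chains of C1q, its proteases C1ra and C1s1, and the C5a receptor gene C5ar1. The genes that rose were Cfd, the protease of the alternative pathway, and the inhibitors Cfi and Cd59a. The median log2 change of the 28 genes was -0.22, beside 0.00 over all tested genes, and 13 of the 28 had both dd libraries below both ff libraries against 6 the other way round. Of all tested genes 31.3% lay below in this way and 31.6% above, or 62.8% either way. The 9 calls depended on the libraries in the fit. Without ff replicate 1 none of the 9 was called, in a fit that called 0.466% of all genes, and without dd replicate 1 only Cfd was (3.11% of all genes). Without dd replicate 2 none of the 9 was called either (1.81% of all genes), C4b being the only member called there. Without ff replicate 2 the C1q genes and Cfi were called (6.16% of all genes). Directions held for all 9 in these 4 fits, but where groups do not overlap the loss of 1 library can hardly turn a direction.

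**Figure D1:**
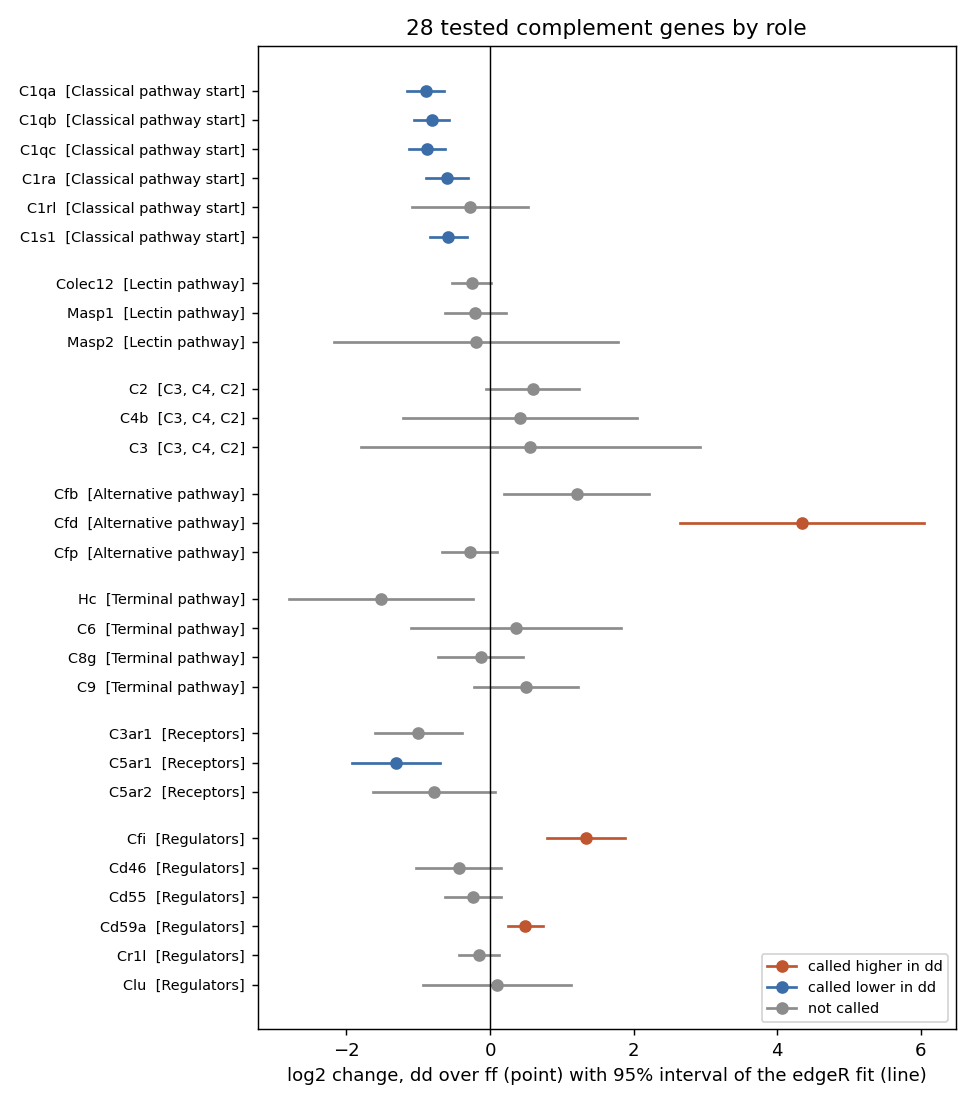
Log2 change of dd over ff (horizontal axis, points) with the 95% interval of the edgeR fit (lines) for the 28 tested complement genes, ordered by role (vertical axis). The genes that start the classical pathway lie left of 0, Cfd lies farthest to the right at 4.35, and the intervals of C3 and C4b reach far to both sides of 0.

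Promoter sequence is shown for C1qb and C1qc, which fell together, for Cfd, which had the largest rise, and for C3, whose libraries differed most. RefSeq (GRCm38.p6, the build mm10) gave promoters for 26 of the 34 genes. C1qa, Colec12, Masp1, C2, C4b, Cfb, Cfi and Clu were not matched. Each line holds the 250 bases before the RefSeq start, 5′ to 3′ on the strand of the gene. Capitals mark matches on either strand to GAGGAA, a core recognised by PU.1 and other ETS factors of macrophages, to TTGCNNAA, the C/EBP core or to TGANTCA, the AP-1 element.
C1qb (chr4:136886201-136886450, minus strand): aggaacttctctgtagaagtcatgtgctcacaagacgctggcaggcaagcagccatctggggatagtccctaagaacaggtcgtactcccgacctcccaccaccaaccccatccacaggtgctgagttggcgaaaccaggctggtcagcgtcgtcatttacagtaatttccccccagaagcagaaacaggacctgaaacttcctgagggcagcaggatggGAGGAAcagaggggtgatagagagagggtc
C1qc (chr4:136892915-136893164, minus strand): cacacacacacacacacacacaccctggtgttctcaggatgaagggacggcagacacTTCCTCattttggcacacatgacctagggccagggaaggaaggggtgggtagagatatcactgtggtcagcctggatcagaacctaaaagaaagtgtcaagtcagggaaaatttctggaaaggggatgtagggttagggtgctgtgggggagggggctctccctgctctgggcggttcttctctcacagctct
Cfd (chr10:79890603-79890852, plus strand): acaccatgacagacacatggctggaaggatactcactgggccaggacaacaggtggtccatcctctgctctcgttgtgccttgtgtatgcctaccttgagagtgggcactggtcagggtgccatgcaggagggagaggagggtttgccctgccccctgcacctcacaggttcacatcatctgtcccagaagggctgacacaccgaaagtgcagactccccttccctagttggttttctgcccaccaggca
C3 (chr17:57228137-57228386, minus strand): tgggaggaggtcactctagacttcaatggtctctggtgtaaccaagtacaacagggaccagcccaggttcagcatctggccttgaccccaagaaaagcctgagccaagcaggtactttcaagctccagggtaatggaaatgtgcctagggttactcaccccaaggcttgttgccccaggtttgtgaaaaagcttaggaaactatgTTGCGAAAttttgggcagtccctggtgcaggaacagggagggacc
GAGGAA lay in the C1qb window at 30 to 25 bases before the start, and in the C1qc window, on the other strand, at 193 to 188 bases. These starts are those of RefSeq. GENCODE M21 starts C1qc farther upstream, at 136893065, so part of this window lies inside the gene as annotated there. GAGGAA was found in 5 of the 26 genes, and in 23.3% of 32851 windows of the same length. TTGCNNAA lay 45 to 38 bases before the start of C3, in 5 of the 26 genes and in 9.56% of all windows. TGANTCA was found in C3ar1 and C8g (6.75% of all windows). None of these letters overlapped another motif in the windows printed, and Cfd held none of the 3. These are matches of letters and no measure of binding.

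The chains of C1q fell together. C1q is built from the products of C1qa, C1qb and C1qc, which lie side by side on the minus strand within 18.7 kb of chromosome 4 (136880129 to 136898803, mm10). C1qa had 2595 and 2757 counts in ff against 1044 and 1366 in dd, or 78.0 and 88.5 against 44.2 and 45.1 CPM (counts scaled to the library size after TMM normalization). Both dd libraries lay far below both ff libraries. The mean went from 83.2 ± 7.46 to 44.6 ± 0.642 CPM (SD, n = 2), a log2 change of -0.90 (SE 0.0987, edgeR adjusted p = 0.0227). C1qb had 74.4 and 80.9 CPM in ff and 42.3 and 46.0 CPM in dd, a log2 change of -0.81 (SE 0.0954, edgeR adjusted p = 0.024). C1qc had 60.9 and 66.8 CPM in ff and 35.9 and 33.6 CPM in dd, a log2 change of -0.88 (SE 0.096, edgeR adjusted p = 0.0227). Each chain thus stood in dd at 0.536, 0.568 and 0.545 of its ff mean, in the order A, B and C, and the 95% intervals of the 3 log2 changes overlapped. Their calls were lost without ff replicate 1 (adjusted p between 0.0545 and 0.0663), dd replicate 1 (0.0516 to 0.0643) or dd replicate 2 (0.0608 to 0.0699), with log2 changes between -0.99 and -0.75 in all 4 fits. In the authors' deposited table the folds of C1qa, C1qb and C1qc are 0.536, 0.568 and 0.545, with unadjusted p-values of 0.0529, 0.0787 and 0.0592.

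Macrophage markers, from a list without complement genes, moved with the C1q genes. Of 12, 4 were called lower and 0 higher, beside 3.86% and 4.52% of all tested genes. Of the list, 10 lay below 0 and the median log2 change was -0.67. The summed level of the list was 490.6 to 581.2 CPM in ff and 423.0 to 449.0 CPM in dd. Adgre1, the gene of the F4/80 antigen, had a log2 change of -1.03, Cx3cr1 of -1.29, the Fc receptor gene Fcgr1 of -1.38 and Lyz2 of -0.88, all called lower. Csf1r (-0.47) and Cd68 (-0.15) were not called, and Cd14 was at 1.09 (edgeR adjusted p = 0.0604). No macrophage marker of the list was at 0. In a whole uterus fewer cells of a type and less RNA per cell cannot be told apart, and the part of macrophage number in the C1q values was not tested.

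The proteases of C1 also fell. C1s1, the gene of the protease that cleaves C4 and C2, had 264.0 and 247.9 CPM in ff and 178.1 and 163.4 CPM in dd. Its log2 change was -0.58 (SE 0.0996, edgeR adjusted p = 0.0383). C1ra, the gene of the protease that activates C1s, had 117.2 and 109.3 CPM in ff and 81.2 and 68.8 CPM in dd, with a log2 change of -0.59 (SE 0.114, edgeR adjusted p = 0.0468). In both genes the groups did not overlap. The 95% interval of the log2 change ran from -0.84 to -0.33 in C1s1 and from -0.89 to -0.30 in C1ra, which the intervals of the C1q genes overlap, and a difference between the falls of chains and proteases was not tested. Neither call survived the loss of any 1 library (adjusted p between 0.0651 and 0.135 for C1s1 and between 0.0684 and 0.159 for C1ra), and C1ra missed the threshold with limma-trend on FPKM (adjusted p = 0.0532). Stromal markers were lower in the same libraries (median -0.68), and their part in these values was not tested. C1rl, a C1r-like protease gene next to C1ra, was low at 3.82 and 5.07 CPM in ff and 4.44 and 2.91 CPM in dd, and its groups overlapped.

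These protease genes sit within 49.2 kb of chromosome 6 (124493113 to 124542359, mm10). Near-identical copies could share reads with them, and the labels do not say how the authors assigned such reads. The copy C1rb had 1 to 5 counts in each library, and C1s2 had 49 and 73 counts in ff against 98 and 79 in dd, so both copies were recorded far below C1ra and C1s1. C1s1 also overlaps the annotated gene Gm16567 on the opposite strand, and the use of strand in counting is likewise not stated. Among the 9 called genes C1s1 was the only one with such a partner, and 12 of the 34 had one.

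**Figure D2:**
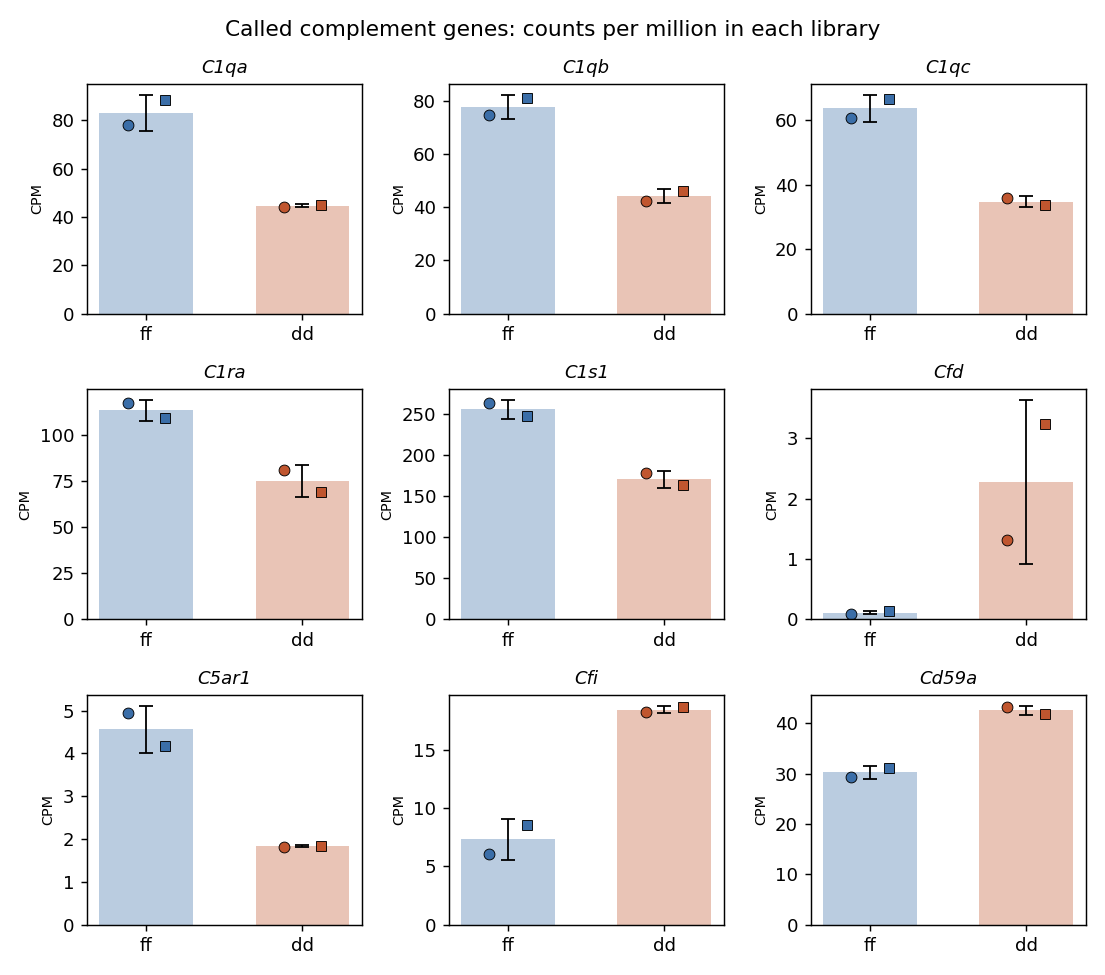
CPM (vertical axes, from 0) in each library for the 9 called complement genes, with circles for replicate 1, squares for replicate 2, bars for the group mean and whiskers for the SD (n = 2). In every panel both dd libraries lie on 1 side of both ff libraries, and the dd libraries of Cfd differ most from each other.

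No lectin pathway gene was called: 0 of 3 tested, with 0 at an unadjusted p under 0.05 and 0 with DESeq2. Its abundant member was Colec12, a membrane collectin that acts as a scavenger receptor, at 145.8 and 151.1 CPM in ff and 115.1 and 133.4 CPM in dd. The dd libraries lay below the ff libraries, and the log2 change of -0.26 (95% interval -0.53 to 0.02) was not called (edgeR adjusted p = 0.192). Masp1, the gene of a protease that starts the lectin pathway, had 14.6 and 17.5 CPM in ff and 14.9 and 12.9 CPM in dd, and the groups overlapped. Masp2 was close to the detection limit with 14 and 10 counts in ff against 2 and 16 in dd. The soluble lectins had few counts: Colec11 had 4 to 13 counts in each library, and Mbl2, which encodes a mannose-binding lectin of the liver, had 1 count in dd replicate 1 and 0 in the others. A count of 3, the limit that 0 counts allow, corresponded to between 0.0901 and 0.127 CPM.

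None of the genes of C3 and its classical convertase (C3, C4b and C2) was called, with 0 of 3 at an unadjusted p under 0.05 and 0 with DESeq2. C3, the protein on which all pathways act, differed more between the dd libraries than between the groups. The ff libraries held 14126 and 9339 of its counts, and the dd libraries 22487 and 3566, or 424.4 and 299.8 against 951.7 and 117.7 CPM. The first dd library was thus above both ff libraries and the second below both. The fitted log2 change of 0.56 (SE 0.914, 95% interval -1.80 to 2.93) was not called (edgeR adjusted p = 0.721). It was -1.62 without dd replicate 1 (adjusted p = 0.0606) and 1.39 without dd replicate 2 (adjusted p = 0.074). The dd libraries differed 8.08-fold in C3, and the ff libraries 1.42-fold. Among the 4904 tested genes with a mean of at least 50 CPM, C3 had the largest ratio between the dd libraries.

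C4b, the gene of C4 and a source of the same convertase as C2, had the same order of libraries as C3. It had 58.7 and 52.0 CPM in ff and 119.0 and 29.2 CPM in dd, a 4.08-fold difference between the dd libraries that ranked 4 among the same 4904 genes. Its log2 change was 0.42 (95% interval -1.22 to 2.05, edgeR adjusted p = 0.7), or -0.92 without dd replicate 1 (adjusted p = 0.0598) and 1.11 without dd replicate 2, when it passed (adjusted p = 0.0476). The copy C4a had 79 and 78 counts in ff against 41 and 55 in dd and did not show this difference between the dd libraries. The other genes among the 5 largest ratios, chosen after their values were seen, were Angptl7 (4.73-fold), Prune2 (4.57-fold) and Rfk (3.60-fold). In dd replicates 1 and 2, epithelial markers summed to 3014 and 3519 CPM and stromal markers to 10954 and 7767 CPM. Myometrial markers summed to 11224 and 6355 CPM, and B and plasma cell markers to 763.6 and 1311 CPM, in the same order of libraries. What sets these libraries apart in C3 was not tested.

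C2, the gene of the protease of the classical convertase, had 6.34 and 9.76 CPM in ff and 11.6 and 12.7 CPM in dd. The dd libraries were above the ff libraries, without the difference between them seen in C3. The log2 change of 0.59 did not pass (SE 0.252, edgeR adjusted p = 0.2, 95% interval -0.06 to 1.24). C2, Cfb and C4b lie within 170 kb of each other on chromosome 17 (34728380 to 34898265, mm10). C2 and Cfb had both dd libraries above both ff libraries, and C4b did not. Both C2 and Cfb overlap the annotated gene Gm20547 on the same strand, and C2 overlaps Zbtb12 on the opposite strand. How reads in such overlaps were assigned is not stated.

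**Figure D3:**
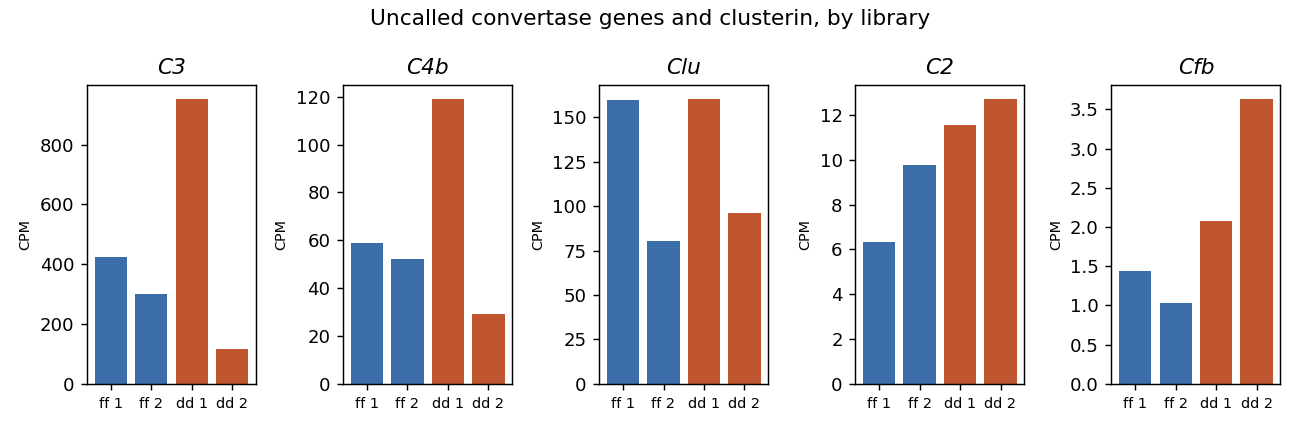
CPM (vertical axes, from 0) in each of the 4 libraries for C3, C4b, Clu, C2 and Cfb, none of which was called. C3 and C4b are highest in dd replicate 1 and lowest in dd replicate 2, while C2 and Cfb are above the ff libraries in both dd libraries.

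In the alternative pathway Cfd rose, and Cfb and Cfp were not called. Cfd encodes factor D, or adipsin, the protease that cleaves factor B and a known product of fat cells. It had 3 and 4 counts in ff against 31 and 98 in dd, or 0.0901 and 0.128 against 1.31 and 3.24 CPM. Every dd library was above every ff library, from a level in ff at about the limit of detection. The mean rose 20.8-fold from 0.109 ± 0.0271 to 2.27 ± 1.36 CPM (SD, n = 2), and the ratio of the summed counts had a 95% counting interval from 10.4 to 55.9. The log2 change was 4.35 (SE 0.656, edgeR adjusted p = 0.0314), and 3.54 without dd replicate 2. Its call was lost without ff replicate 1 (adjusted p = 0.124), ff replicate 2 (0.0697) or dd replicate 2 (0.0695), and with limma-trend on log2(FPKM + 0.5) (adjusted p = 0.0502, log2 2.17 on that scale). For Cfd the fold in the authors' deposited table is 20.3, with an unadjusted p-value of 9.76e-11.

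Markers of fat cells were few in the same libraries. Of 9, 4 passed the filter, 0 were called higher and Lipe was called lower. Among these 4, 3 lay above 0 and 1 below, and the median log2 change was 0.24. Leptin (Lep) was at 0 in all libraries. Adiponectin (Adipoq) had 0 and 5 counts in ff against 7 and 12 in dd, Plin1 1 and 0 against 1 and 7, Cidec 0 and 0 against 4 and 9, and Retn 1 and 2 against 4 and 13. The summed level of the list was 49.4 to 57.0 CPM in ff and 36.6 to 42.7 CPM in dd, most of it from Plin4 and Lipe. The low counts of Adipoq, Plin1, Cidec and Retn were higher in dd replicate 2 than in dd replicate 1, as were those of Cfd. Replicate 2 of dd also held more counts in total (30868922 against 24619850). The sum of the list went the other way, with 42.7 CPM in dd replicate 1 and 36.6 CPM in dd replicate 2. The part of fat tissue in the Cfd values was not tested.

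Cfb encodes factor B, which forms the alternative convertase with C3b. It had 1.44 and 1.03 CPM in ff and 2.07 and 3.63 CPM in dd. The groups did not overlap, but the log2 change of 1.21 did not pass (SE 0.391, edgeR adjusted p = 0.124). Cfp, the gene of properdin, which stabilises that convertase, was far more abundant at 37.1 and 32.0 CPM in ff and 31.2 and 25.5 CPM in dd. Its log2 change of -0.28 did not pass (edgeR adjusted p = 0.273).

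The terminal pathway was low in these uteri. On the authors' FPKM scale, which divides by gene length, C8g (a lipocalin-type subunit of C8) had 2.27 and 2.68 in ff and 2.17 and 2.35 in dd, and C9 (the pore-forming subunit) 0.870 and 1.28 in ff and 1.51 and 1.52 in dd. Hc (the gene of C5), C6 and C7 were at most at 0.225 FPKM in any library, and C8a and C8b had 0 to 2 counts in each. No terminal gene was called (0 of 4 tested, 0 with DESeq2, and 1, Hc, at an unadjusted p under 0.05). Hc had 17 and 31 counts in ff against 6 and 8 in dd, a log2 change of -1.52 (SE 0.494, edgeR adjusted p = 0.126). C7, with 20 and 9 counts in ff against 1 and 6 in dd, did not pass the filter and was not tested. C9 had a log2 change of 0.50 (edgeR adjusted p = 0.302), C6 of 0.36 (0.713) and C8g of -0.13 (0.74). C8g overlaps Fbxw5 on the opposite strand, so its counts may hold reads of that gene.

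Markers of hepatocytes, the main source of plasma complement, were low. Albumin (Alb) had 2 and 2 counts in ff against 0 and 1 in dd, Serpina1a and Fgb were at 0 in every library, and the list summed to 16.1 to 23.5 CPM in ff and 1.95 to 4.98 CPM in dd, with Ttr its largest part. Of the 3 tested markers 1, Apoa2, was called lower and 0 higher. The liver-type complement genes Mbl2, C8a and C8b were likewise at or near 0. C9 was not, with 74 and 102 counts in ff against 92 and 117 in dd, nor was C8g, with 113 and 125 against 77 and 106.

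Of the receptors of the C3a and C5a fragments C5ar1 fell, and C3ar1 and C5ar2 were not called by edgeR's quasi-likelihood test. C5ar1, the main C5a receptor on myeloid cells, had 165 and 130 counts in ff against 43 and 56 in dd, or 4.96 and 4.17 against 1.82 and 1.85 CPM. Both dd libraries were below 0.5 of the lower ff library, and the log2 change was -1.31 (SE 0.237, edgeR adjusted p = 0.0416). C3ar1, the C3a receptor, had 367 and 443 counts in ff against 128 and 218 in dd. Its groups did not overlap. The log2 change of -0.998 (SE 0.234) missed the threshold with edgeR's quasi-likelihood fit (adjusted p = 0.0695) and passed with DESeq2's Wald test (adjusted p = 0.00716) and edgeR's exact test (adjusted p = 0.0133), and also in the quasi-likelihood fit with no filter. C5ar2, a second C5a receptor, was low at 1.05 and 1.35 CPM in ff and 0.593 and 0.792 CPM in dd (log2 -0.78, edgeR adjusted p = 0.198). Vsig4, a macrophage receptor for C3b, had 2 and 0 counts in ff against 8 and 2 in dd and was not tested. The call of C5ar1 was lost without any 1 library (adjusted p between 0.0723 and 0.159, log2 between -1.44 and -1.18). Macrophage markers were lower in the same libraries (median -0.67). Of 11 neutrophil markers 5 were tested, 1 was called higher and 0 lower, and the median log2 change was -0.40. The 4 that were not called were S100a9 (-2.65, edgeR adjusted p = 0.077), the receptor gene Csf3r (-0.75, 0.185), Retnlg (-0.40, 0.481) and Mpo (0.50, 0.43). The neutrophil list summed to 12.6 to 28.0 CPM in ff and 282.5 to 413.2 CPM in dd, most of it from lactoferrin (Ltf), which was called higher and which uterine epithelium also makes. Elane was at 0 in all libraries, Ngp had 1 count in all, and the part of neutrophils was not tested.

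Among the regulators, Cfi and Cd59a rose and the others were not called. Cfi encodes factor I, the protease that inactivates C3b and C4b. It had 202 and 267 counts in ff against 431 and 567 in dd, or 6.07 and 8.57 against 18.2 and 18.7 CPM. The dd libraries were nearly alike and both above 2 times the higher ff library. The log2 change was 1.34 (SE 0.21, edgeR adjusted p = 0.0333), and 1.11 to 1.60 with 1 library left out. Cfi kept its call without ff replicate 2 (adjusted p = 0.0286) and lost it without ff replicate 1 (0.083), dd replicate 1 (0.0769) or dd replicate 2 (0.09).

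Cd59a encodes the membrane protein that blocks assembly of the terminal pore. It had 29.3 and 31.2 CPM in ff and 43.2 and 41.9 CPM in dd, a rise of 1.41-fold with no overlap (log2 0.49, SE 0.0936, edgeR adjusted p = 0.0464). Its duplicate gene Cd59b, which could share reads with it, had 103 and 106 counts in ff against 117 and 87 in dd. Cd59a was the only called member whose call changed with the scaling: it was lost with upper quartile factors (adjusted p = 0.0576), with the library size alone (0.0644) and without any 1 library (0.0901 to 0.172). Epithelial markers moved with Cfi and Cd59a (6 of 15 called, median 0.97, summed to 1290 to 1570 CPM in ff and 3014 to 3519 CPM in dd), and their part in both values was not tested.

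The other regulators were not called. Cd55, which speeds the decay of convertases, had 93.6 and 81.8 CPM in ff and 65.1 and 83.2 CPM in dd, and the groups overlapped (log2 -0.24, 95% interval -0.63 to 0.15). Cr1l, the rodent regulator known as Crry, had 75.7 and 72.1 CPM in ff and 61.3 and 71.4 CPM in dd, with a log2 change of -0.16 (95% interval -0.43 to 0.12). Cd46, a cofactor for factor I, was low at 5.74 and 7.67 CPM in ff and 4.95 CPM in each dd library (log2 -0.44, edgeR adjusted p = 0.272). Cd46 and Cr1l are neighbours on chromosome 1, and Cd46 has annotated genes on the opposite strand. Clu, the gene of clusterin, a secreted chaperone that binds terminal complexes, had 159.5 and 80.2 CPM in ff and 160.2 and 96.2 CPM in dd. In both groups replicate 1 was higher, by 1.99-fold in ff and 1.67-fold in dd, and the log2 change of 0.10 did not pass (edgeR adjusted p = 0.896).

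**Figure D4:**
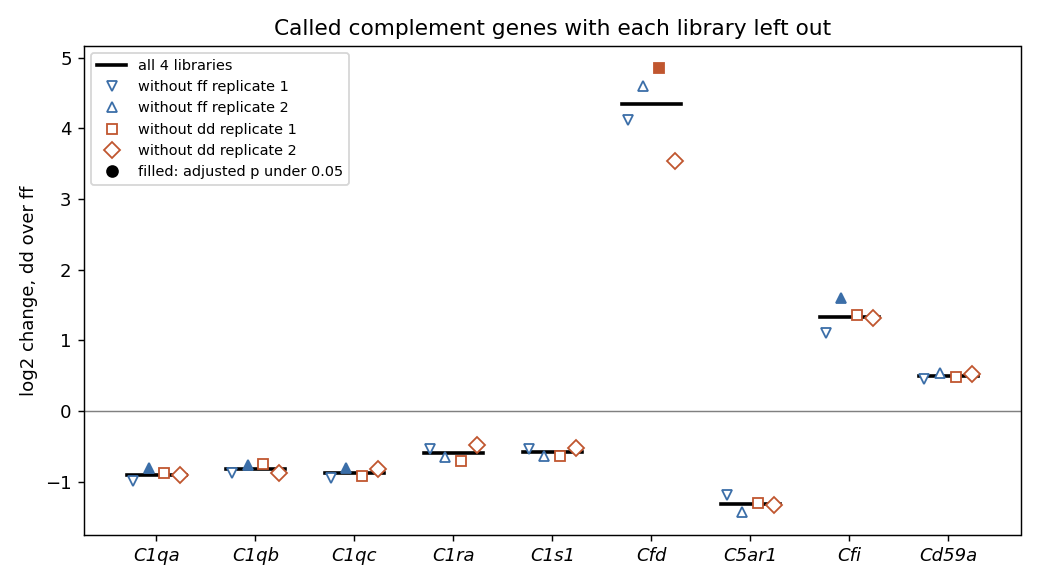
Log2 change of dd over ff (vertical axis) of the 9 called genes with all 4 libraries (black lines) and with each library left out (symbols, filled where the adjusted p was under 0.05). The direction holds in each fit, which groups without overlap nearly fix beforehand. Filled symbols remain for the C1q genes and Cfi without ff replicate 2 and for Cfd without dd replicate 1.

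Levels between genes can be compared per gene length, on the authors' FPKM scale. In ff the order of the means was led by C1s1 (81.7 ± 3.81 FPKM, SD, n = 2), C1qa (79.9 ± 7.01), C1qb (71.3 ± 4.05) and C3 (70.4 ± 17.2), the C3 libraries spanning a range that overlapped each of the others. They were followed by C1ra (39.3 and 36.6 FPKM), Clu (34.9 ± 16.4) and C1qc (33.0 ± 2.11). In all, 11 members had a mean of at least 10 FPKM in ff, 10 lay between 1 and 10 and 13 were under 1. In dd C3 was at 183.9 FPKM in replicate 1 and 23.0 in replicate 2, while C1s1 had 56.6 and 52.4, C1qa 42.2 and 43.5 and C1qb 38.7 and 42.4. The place of C3 in dd thus depended on the library. Cfd, even after its rise, was at 1.41 and 3.52 FPKM, below Cfi at 8.17 and 8.47 and Cd59a at 23.7 and 23.2.

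From a list of 35 other complement genes outside the set 22 were tested, with a median log2 change of -0.63. DESeq2 gave 7 lower and 1 higher, beside 1342 and 1518 over the whole table. By edgeR's quasi-likelihood test 4 (18.2%) were lower and 0 higher, beside 3.86% and 4.52% of all tested genes. Those called were Cd93, a receptor of endothelium and myeloid cells once described as a C1q receptor (log2 -0.61, edgeR adjusted p = 0.0389), Itgax, a subunit of complement receptor CR4 (-1.19, 0.0485), Thbd, the endothelial thrombomodulin gene (-1.19, 0.0398), and Pros1, the gene of protein S, which binds C4b-binding protein (-0.73, 0.0253). None of these 4 was called without ff replicate 1 or dd replicates 1 or 2, and Thbd and Pros1 were without ff replicate 2. With limma-trend on FPKM the calls of Itgax (adjusted p = 0.0652) and Thbd (0.0509) were lost. Endothelial markers summed to 1549 to 1787 CPM in ff and 859.9 to 884.5 CPM in dd, and their part was not tested. Among the abundant genes that were not called, Serping1, the C1 inhibitor gene, had 517.3 and 410.9 CPM in ff and 323.4 and 241.1 CPM in dd (log2 -0.72, edgeR adjusted p = 0.0919). C1qbp, a C1q-binding protein gene, had a log2 change of -0.01 (edgeR adjusted p = 0.983), and Calr, the calreticulin gene, of 0.18 (0.688). Itgb2, the shared chain of the complement receptors CR3 and CR4, had -0.65 (0.0537), and Itgam, the other chain of CR3, -0.88 (0.167), with both dd libraries below both ff libraries in each. In the authors' deposited table, 3 of the 9 called members (Cfd, C5ar1 and Cfi) have an unadjusted p under 0.05. Members not called here also do: Cfb (0.017), Hc (0.0167), C7 (0.0161), C3ar1 (0.0351) and Vsig4 (0.0461). C7 and Vsig4 were not tested here, and the share of all genes under 0.05 in the authors' test was not computed.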

How the data were processed

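RNA from whole uteri was sequenced as TruSeq libraries of TRIzol-extracted RNA, per the labels' protocols, with 2 libraries in each group. The deposited table holds whole-number counts per gene and library, the authors' rescaled counts (a signal, left untested), FPKM per the file headers, and the authors' fold (a ratio of dd over ff) with an unadjusted p-value, whose test the labels do not name. STAR, edgeR and build mm10 are named, without versions, in the submitters' processing notes. Counter, annotation and strand: not given in the sources used here.

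Groups were compared with edgeR 4.0.16 in R 4.3.3 on the deposited counts of all 18530 genes that passed filterByExpr, with TMM factors, glmQLFit, glmQLFTest and Benjamini-Hochberg adjustment at 0.05. CPM are per TMM-scaled library size. SE is the log2 change over the root of F, and counting intervals and floors cover counting error only. The fit was tested on simulated data. Positions and overlapping genes came from GENCODE M21. As alternatives a block by replicate number, fits without each library in turn (a group's lone library is then assumed to vary like the other group), other scalings, filters and thresholds, DESeq2 1.42.0, limma 3.58.1 (voom, and trend on log2(FPKM + 0.5)) and the exact test of edgeR were run. Every member was described by role, with values for those that passed the filter. Of the other complement genes, those called and up to 6 uncalled ones of highest mean CPM were named, except 1 that is not reported here. Tf and Wdr16, on the marker lists, were not analysed here. Members and lists were chosen with earlier results of these data known.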

Additional observations from a re-analysis of the deposited data

How the results depend on the processing

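Of 126 alternative values of the 9 called complement genes, 89 kept direction and call, 37 lost the call and 0 turned. A turn was hardly possible, as the groups of all 9 did not overlap. With all libraries, 3 members were higher and 6 lower. These counts ranged from 0 to 1 and from 0 to 3 with 1 library left out, and were 0 and 0 at an adjusted p under 0.01. Over all tested genes, calls ranged from 62 to 726 higher and from 28 to 472 lower with 1 library left out, beside 838 and 716. They were 1584 and 1363 with no filter, 1518 and 1342 with DESeq2's Wald test, 1590 and 1461 with edgeR's exact test, 9 and 1 at an adjusted p under 0.01, and 1766 and 1622 under 0.1. Other complement genes ranged from 0 to 1 higher and from 0 to 2 lower with 1 library left out, and were 1 and 8 with no filter, 1 and 7 with DESeq2, 1 and 8 with the exact test, 0 lower under 0.01, and 1 and 8 under 0.1.

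Directions turned only in members that were not called and whose groups overlapped. With 1 library left out the log2 changes ranged from -1.62 to 1.39 for C3 (without dd replicates 1 and 2), from -0.92 to 1.11 for C4b (the same), from -2.08 to 0.51 for Masp2, from -0.41 to 0.92 for C6, from -0.32 to 0.68 for Clu and from -0.60 to 0.0031 for C1rl. C3 was at -0.0689 with limma-voom and -0.085 with limma-trend on FPKM. The cause was not tested.

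With the replicate block, C5ar1 (adjusted p = 0.0624), Cd59a (0.0768) and, outside the set, Cd93 (0.0554) and Itgax (0.0622) were not called, 2 members were higher and 5 lower, and C3 was at -0.0878. Numbers 1 and 2 are shared by label alone, and the deviations of same-numbered libraries had a correlation of 0.0129 across 18530 genes. The 6 members that did not pass the filter were not tested, which limits statements on them to their counts.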
